A study of Mus musculus with 6 samples.

Results

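The replication-dependent histone genes of the mouse were followed in bone marrow-derived macrophages, the macrophages grown in culture from marrow precursors. Members were all protein-coding genes whose GENCODE vM21 symbol starts with Hist1h, Hist2h, Hist3h or Hist4h, after the transcript rows of the deposited count table had been summed per gene. This gave 67 of 55263 genes, or 67 of 21987 protein-coding genes. The members code for the linker histone H1 (6 genes) and the core histones H2A (18 genes), H2B (18 genes), H3 (12 genes) and H4 (13 genes). On GRCm38, 54 of them lie in the Hist1 cluster (chr13:21715763-23934851) and 10 in the Hist2 cluster (chr3:96219865-96270132). The Hist3 cluster on chromosome 11 holds 2 members and the Hist4 locus on chromosome 6 holds 1.

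The study holds 3 groups of 2 libraries each: macrophages given LPS together with HACA, macrophages given LPS, and control macrophages, labelled wild type. LPS (lipopolysaccharide) is a component of the wall of Gram-negative bacteria that activates macrophages through Toll-like receptor 4. The labels do not spell out HACA. The title of the study concerns a hyaluronic acid nanomedicine. The sources used here do not state doses, times, the age of the animals or whether a replicate number marks 1 animal or culture. The p-values therefore cover the variation among these libraries, which may be technical.

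Replication-dependent histone genes supply the histones that package newly copied DNA, and their transcripts accumulate mainly in S phase. Most of their mRNAs end in a conserved stem-loop in place of a poly(A) tail. The stem-loop-binding protein SLBP holds this structure, and the U7 snRNP directs the cut that forms the 3′ end. Some members also give polyadenylated mRNA, mainly in cells that have left the cell cycle. The libraries were made from RNA caught on poly(A) beads, per the labels' protocols, so levels here are levels of histone transcripts retained by that step.

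The stem-loop is what sets these transcripts apart in sequence, so its form in each class is shown. In the transcript models, 44 of the 67 members carried a 16-base stem-loop motif (in order GG, any 2 bases, CTTTT, any base, AG, any 2 bases and CC, searched on the transcript strand) within 100 bases after the stop codon. It began 21 to 58 bases after the stop codon, with a median of 31. For 15 of the 23 members without a match, the model ended less than 30 bases after the stop codon. Among all 40208 coding transcripts with at least 100 annotated bases there, 0.0746% held the motif. These were 30 transcripts, of which 3 were not from member genes. The 2 shares are not alike, since members were counted as genes and needed no 100 annotated bases. Each sequence below is written 5′ to 3′ from the GENCODE vM21 transcripts, with the stem-loop in capitals and 6 flanking bases on each side.
Hist1h1c (H1, chromosome 13): ccaaaaGGCTCTTTTCAGAGCCaccact
Hist1h2ao (H2A, chromosome 13): aaaaaaGGCTCTTTTCAGAGCCatccac
Hist1h2bg (H2B, chromosome 13): cccaaaGGCTCTTTTCAGAGCCacccat
Hist1h3b (H3, chromosome 13): cccaaaGGCTCTTTTCAGAGCCacccac
Hist1h4d (H4, chromosome 13): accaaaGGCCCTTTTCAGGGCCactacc
Hist1h2bb (H2B, chromosome 13): cccaaaGGCTCTTTTAAGAGCCacccac
Hist2h2ac (H2A, chromosome 3): caaaaaGGCTCTTTTTAGAGCCaccaaa
Hist1h4b (H4, chromosome 13): acaaaaGGTCCTTTTCAGGACCactcac
Hist2h4 (H4, chromosome 3): cctaacGGCCCTTTTTAGGGCCaaccac

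The forms divided by class. All 11 H4 matches had a stem of their own: 7 had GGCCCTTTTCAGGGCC, 2 had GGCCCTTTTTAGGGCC and 2 had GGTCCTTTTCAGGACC. The 33 matches in H1, H2A, H2B and H3 shared the stem of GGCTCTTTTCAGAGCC, which 26 members carried in that form. In 6 others the loop read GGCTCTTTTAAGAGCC, and in Hist2h2ac it read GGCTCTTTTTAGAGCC. No match was found in the annotated window of Hist2h2be or Hist1h2bc, genes of H2B.

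Libraries held 12529874 to 15379496 counts, of which 24.3% to 29.2% fell on genes of type misc_RNA. The macrophage marker Lyz2 was at 30360 to 47790 CPM (counts scaled to a common library size with TMM factors), while the macrophage markers Adgre1 and Itgam lay between 0.19 and 1.82 CPM. Over the 8 tested of 9 listed macrophage markers, the median was 69 to 127 CPM in a library. None of the listed markers of T and NK cells, erythroid cells or mast cells reached the level needed for testing. All 3 libraries with replicate number 1 stood apart from those with number 2 in histone genes, whatever the treatment, as described next. Results were therefore also computed without each library.

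Of the 67 members, 59 had enough counts to be tested: 5 of H1, 15 of H2A, 16 of H2B, 10 of H3 and 13 of H4. Another 6 had no count in any library (Hist1h2aa, Hist2h2aa1, Hist2h2aa2, Hist2h2bb, Hist2h3b and Hist2h3c1). In the 5 of these that lie in the Hist2 cluster, 100% of the exon bases were overlapped by other annotated genes. Hist1h1t, the testis-specific H1, and Hist1h2bp had at most 5 counts in a library. Per transcript length, in FPKM averaged over the 6 libraries, tested members ranged from 0.281 (Hist1h2br) to 499 (Hist1h4n), with a median of 104. The H4 class had the highest median level (203 FPKM), followed by H3 (135 FPKM), H2A (106 FPKM), H1 (102 FPKM) and H2B (58.3 FPKM).

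A near-identical copy, meaning another gene that holds at least 50% of the member's 50-base stretches, was found for 31 of the 67 members. The sources used here do not say how the authors' counting divided reads between such copies, so their single values are uncertain. Hist1h2ao had 2843 and 250 counts in LPS+HACA libraries, 1400 and 137 in LPS libraries and 2316 and 304 in control libraries. Its copy Hist1h2ap had 2847 and 249 counts in LPS+HACA libraries, 1395 and 134 in LPS libraries and 2314 and 303 in control libraries. Class medians are therefore also given below for the 34 tested members without such a copy.

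Histone transcripts were far more abundant in the libraries with replicate number 1 than in those with number 2. Members took up 1.06% (replicate 1) and 0.185% (replicate 2) of all counts in LPS+HACA libraries, 0.649% and 0.111% in LPS libraries, and 0.793% and 0.205% in control libraries. Of the 59 tested members, 55 were higher in replicate 1 in all 3 groups, against 20.7% of all 17113 tested genes. At least 4-fold higher in all 3 groups were 33 of 59 members, against 0.894% of all tested genes. The median ratio of replicate 1 to replicate 2 over the members was 9.37-fold in LPS+HACA libraries, 7.82-fold in LPS libraries and 5.80-fold in control libraries (log2 3.23, 2.97 and 2.54), where the median over all tested genes lay within 0.02 of 0 on the log2 scale. In bulk libraries such as these, fewer cells of a type and less RNA per cell cannot be told apart.

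**Figure D1:**
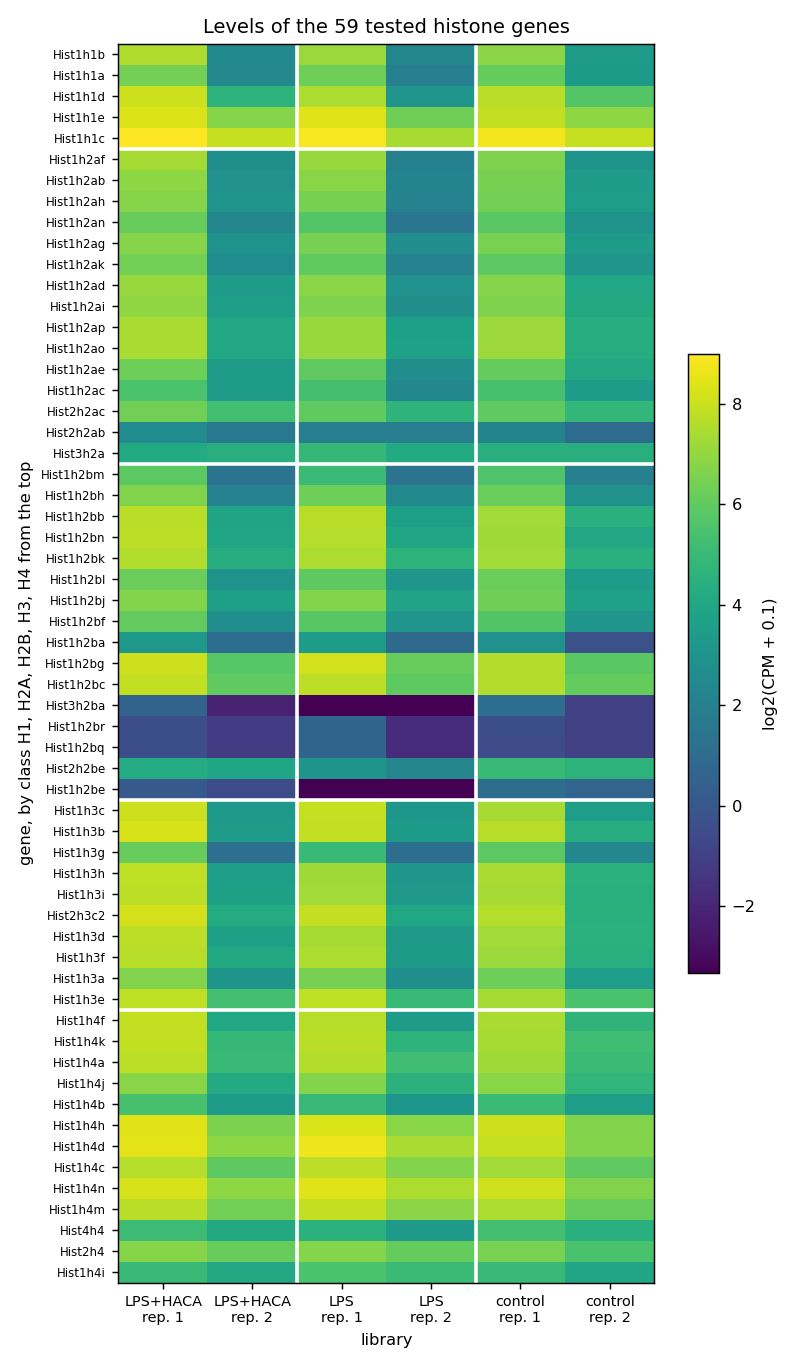
Level of each of the 59 tested histone genes (rows, grouped by class and ordered within a class by the ratio of replicate 1 to replicate 2) in the 6 libraries (columns), as log2(CPM + 0.1) in colour. Most rows are bright in replicate 1 and dark in replicate 2 of all 3 groups; Hist3h2a and Hist2h2be are nearly even.

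The excess differed among the classes. In H3, the core histone that pairs with H4, the median log2 ratio of replicate 1 to replicate 2 was 4.10 in LPS+HACA libraries, 4.01 in LPS libraries and 2.89 in control libraries. In H4 it was 1.69, 1.28 and 1.39 in the same order, the lowest of the 5 classes. Those of H2A were 3.40, 3.73 and 2.79, those of H2B 2.85, 2.61 and 2.57, and those of H1 3.41, 4.25 and 1.98. Over members without a near-identical copy, the medians were 2.07, 2.968 and 1.935 in H2A (5 genes) and 2.454, 2.265 and 2.332 in H2B (10 genes). H2A then lay below H2B in LPS+HACA and control libraries. For H3 they were 4.086, 4.063 and 2.76 (5 genes), and for H4 1.687, 1.282 and 1.276 (9 genes). No test was made of these class medians, since the genes of a class share their libraries.

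Hist1h1b, which codes for the linker histone H1.5, showed one of the widest gaps. It was at 186 and 5.75 CPM in LPS+HACA libraries, 144 and 5.01 CPM in LPS libraries and 115 and 11.2 CPM in control libraries (replicate 1 before replicate 2, here and below). At the other end, Hist3h2a, an H2A gene of the small Hist3 cluster, was at 18.5 and 21.4 CPM in LPS+HACA libraries, 29.0 and 18.3 CPM in LPS libraries and 21.9 and 21.2 CPM in control libraries. Both genes were singled out after their values were seen.

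Members with a long annotated 3′ part had smaller gaps. The 16 tested members with at least 500 bases annotated after the coding part had a median mean log2 ratio of 1.32 over the 3 groups, and the 43 with fewer had 3.25. Across the 59 genes, Spearman's rho between the annotated length after the coding part and the mean log2 ratio was -0.467, and -0.581 over the 34 members without a near-identical copy. This is a description across genes that share libraries, and genes are not independent replicates. The Hist1h2be point rests on a non-coding transcript described below. All counts of Hist1h2bq and Hist1h2br, 2 to 15 a library, came from transcripts annotated as nonsense-mediated decay, with 1611 and 1806 bases after the coding part, where the plotted length is 823 from coding models with 0 counts.

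**Figure D2:**
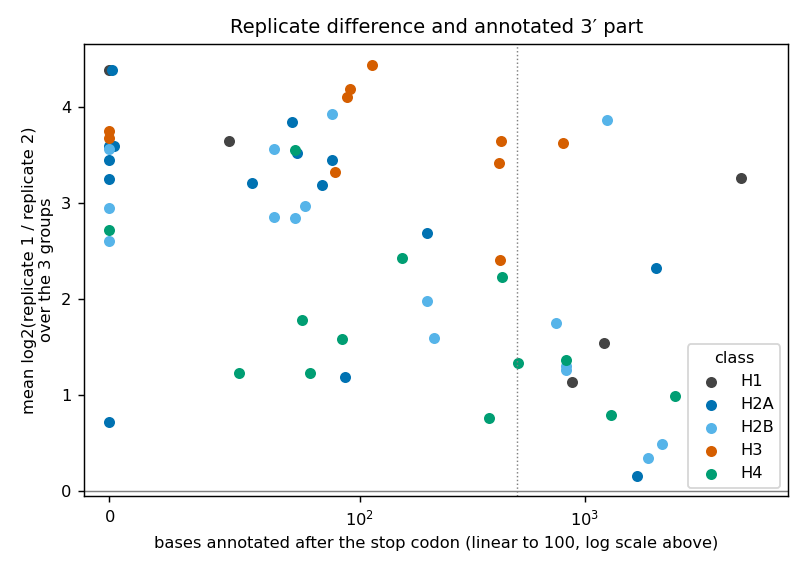
Bases annotated after the stop codon (x axis, linear to 100 and logarithmic above) against the log2 ratio of replicate 1 to replicate 2 averaged over the 3 groups (y axis), 1 point per tested histone gene, coloured by class. Members to the right of the dotted line at 500 bases have a median of 1.32 and those to its left a median of 3.25.

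Genes of the cell cycle also differed between the replicates. Of 18 tested genes of G2 phase and mitosis, 17 were higher in replicate 1 in all 3 groups and 13 at least 4-fold, with median log2 ratios of 4.33 in LPS+HACA, 4.66 in LPS and 2.96 in control libraries. Of 30 tested genes of S phase and DNA replication, 21 were higher in replicate 1 in all 3 groups and 3 at least 4-fold, with medians of 1.57, 1.61 and 0.58. Of 15 tested genes of histone mRNA processing, 4 were higher in all 3 groups and 0 at least 4-fold.

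Mki67, a marker of cycling cells, was at 977 and 314 CPM in LPS+HACA libraries, 1423 and 988 CPM in LPS libraries and 497 and 128 CPM in control libraries. Pcna, the sliding clamp of DNA polymerase, was nearly even between replicates in control libraries (46.1 and 45.6 CPM), with 67.8 and 37.5 CPM in LPS+HACA libraries and 76.6 and 63.9 CPM in LPS libraries. Slbp, whose product binds the histone stem-loop, was at 7.35 and 8.93 CPM in LPS+HACA libraries, 6.5 and 9.83 CPM in LPS libraries and 9.28 and 8.66 CPM in control libraries. Slbp was thus lower in replicate 1 in the LPS+HACA and LPS groups and slightly higher in control, unlike most histone genes.

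Markers of other cell types also differed between the replicates. The 3 tested stromal markers of 6 listed (Col1a1, Col1a2 and Col3a1) summed, with the untested ones, to 49.6 and 1.35 CPM in LPS+HACA libraries, 32.3 and 2.22 CPM in LPS libraries and 47.1 and 1.72 CPM in control libraries, while Sparc was at 0 in every library. The 8 listed markers of neutrophils and their precursors, 4 of them tested, summed to 4.98 and 37.1 CPM in LPS+HACA libraries, 13.8 and 64.2 CPM in LPS libraries and 7.59 and 40.0 CPM in control libraries, with S100a9 and Ly6g at 0. Their part in the replicate gap was not tested.

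The 12 members with the highest mean CPM, a ranking that does not correct for length, held 3 H1 genes, 5 H4 genes, 2 H2B genes and 2 H3 genes. None of the 12 passed the test used here, which has no replicate term, in any of the 3 comparisons. With that term, Hist1h4d (adjusted p = 0.0079), Hist1h4c (0.025), Hist1h4m (0.030) and Hist1h4n (0.039) were called higher in LPS than in control libraries (edgeR). In the same fit Hist1h1d was called lower (0.039). With no filter on low counts, Hist1h4d was called higher (adjusted p = 0.036, edgeR). Hist1h1c, which codes for H1.2, was at 510 and 242 CPM in LPS+HACA libraries, 467 and 168 CPM in LPS libraries and 432 and 240 CPM in control libraries. Hist1h1e, which codes for H1.4, was at 323 and 107 CPM in LPS+HACA libraries, 340 and 81.2 CPM in LPS libraries and 235 and 121 CPM in control libraries. For Hist1h1d, which codes for H1.3, the values were 267 and 25.0 CPM in LPS+HACA libraries, 179 and 8.38 CPM in LPS libraries and 208 and 52.7 CPM in control libraries. In all 3 linker genes the replicates of a group lay farther apart than the groups.

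The H4 genes all code for the core histone that forms a tetramer with H3. Hist1h4d was at 363 and 118 CPM in LPS+HACA libraries, 417 and 171 CPM in LPS libraries and 244 and 106 CPM in control libraries. Hist1h4n had 308 and 120 CPM in LPS+HACA libraries, 331 and 179 CPM in LPS libraries and 275 and 101 CPM in control libraries. In both, the LPS library was above the control library of the same replicate number with TMM factors, yet the groups overlapped. Hist1h4h gave 344 and 93.9 CPM in LPS+HACA libraries, 314 and 110 CPM in LPS libraries and 264 and 102 CPM in control libraries. Hist1h4m gave 209 and 84.0 CPM in LPS+HACA libraries, 232 and 117 CPM in LPS libraries and 181 and 69.2 CPM in control libraries. The same order within each number was seen in Hist1h4h, Hist1h4m and Hist1h4c, the last with 199 and 61.8 CPM in LPS+HACA libraries, 220 and 106 CPM in LPS libraries and 154 and 63.4 CPM in control libraries. Scaled by library totals, none of these 5 genes was above control in both numbers: the log2 ratio of LPS to control was 0.26 and -0.085 in Hist1h4d and -0.24 and 0.045 in Hist1h4n.

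H2B forms a dimer with H2A. Hist1h2bg was at 264 and 55.9 CPM in LPS+HACA libraries, 280 and 71.1 CPM in LPS libraries and 192 and 57.6 CPM in control libraries. Hist1h2bc had 237 and 63.4 CPM in LPS+HACA libraries, 219 and 61.4 CPM in LPS libraries and 190 and 66.7 CPM in control libraries. The H3 genes had the widest gaps between the replicates among the 12. Hist1h3b was at 306 and 11.3 CPM in LPS+HACA libraries, 235 and 10.3 CPM in LPS libraries and 204 and 20.4 CPM in control libraries. Hist2h3c2, which has a near-identical copy, was at 290 and 19.1 CPM in LPS+HACA libraries, 235 and 15.9 CPM in LPS libraries and 198 and 22.4 CPM in control libraries.

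The first comparison asks what LPS did to these genes. No member passed the test as higher in LPS than in control libraries, where 15.9% of all tested genes did, and 2 of 59 passed as lower, where 14.3% of all tested genes did (edgeR quasi-likelihood test, adjusted p under 0.05, Benjamini-Hochberg over 17113 genes). Both are H2B genes, Hist2h2be and Hist1h2be. An unadjusted p under 0.05 was found for 3 members, these 2 and Hist3h2ba, all lower in LPS. Shares of all tested genes at an unadjusted p are not given here or below. DESeq2 called 0 as higher and 3 as lower, beside 2980 and 2498 of all tested genes. With limma-voom the counts were 0 and 2, beside 2645 and 2163 of all tested genes. With a replicate term in the edgeR fit, 5 members were called higher and 6 lower, beside 3506 higher and 3384 lower of all tested genes. The sources used here do not say whether a replicate number marks a shared animal or culture. With library totals in place of TMM factors, the split of all tested genes moved from 2715 higher and 2442 lower to 1417 higher and 5111 lower, while for members it was 0 higher and 3 lower. The libraries of LPS and control did not overlap in 4 of 59 members, against 66.7% of all tested genes. The standard error of the log2 fold change had a median of 1.75 over the members and 0.407 over all tested genes, in the fit without a replicate term.

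Hist2h2be (chr3:96221119-96223738) codes for an H2B of the Hist2 cluster, and its human counterpart is known to give polyadenylated mRNA in cells that do not divide. It was at 8.18 and 4.72 CPM in LPS libraries, against 31.7 and 24.7 CPM in control libraries. The groups did not overlap, and the replicates of each lay close to one another. Its level averaged 6.45 ± 2.44 CPM in LPS libraries and 28.2 ± 4.96 CPM in control libraries (SD, n = 2 each). It fell by 2.13 on the log2 scale (SE 0.34, adjusted p = 0.0031, edgeR), and adjusted p stayed between 0.00099 and 0.030 when each of the 6 libraries was left out in turn.

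Hist1h2be (chr13:23583670-23621124) had 0 counts in both LPS libraries, against 32 and 23 counts in control libraries. Against a limit of 3 counts over the LPS group, it was at least 12.1-fold lower in LPS libraries (adjusted p = 0.0050, edgeR; 0.0064 to 0.039 on dropping each library in turn). All of its counts came from 1 non-coding transcript (chr13:23618980-23621078), which overlaps the 3′ end of Hist1h1e, and none from the transcripts that code for H2B. The value thus belongs to that transcript, and reads from the overlap could not be told apart from Hist1h1e.

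Another 2 members were singled out after their values were seen. Hist3h2ba, an H2B gene, had no counts in LPS libraries, against 33 and 6 counts in control libraries (adjusted p = 0.064, edgeR). It was called lower in LPS by DESeq2 (adjusted p = 0.011) and by edgeR with library totals (adjusted p = 0.040) or with no filter on low counts (adjusted p = 8.29e-05), and in 2 of the 6 edgeR fits that each dropped 1 library (adjusted p = 0.032 and 0.040, without LPS+HACA replicate 2 and replicate 1). With a replicate term, edgeR also called Hist3h2ba lower in LPS (adjusted p = 0.0064). Hist1h4i, an H4 gene, was at 45.1 and 33.2 CPM in LPS libraries, against 31.1 and 15.7 CPM in control libraries (log2 fold change 0.74, SE 0.41, adjusted p = 0.20, edgeR). With a replicate term Hist1h4i was called higher (log2 fold change 0.81, adjusted p = 0.013, edgeR). Its log2 ratio of LPS to control remained above 0 in both numbers with library totals (0.027 and 0.30). These 2 genes, Hist2h2be and Hist1h2be were the 4 whose groups did not overlap.

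**Figure D3:**
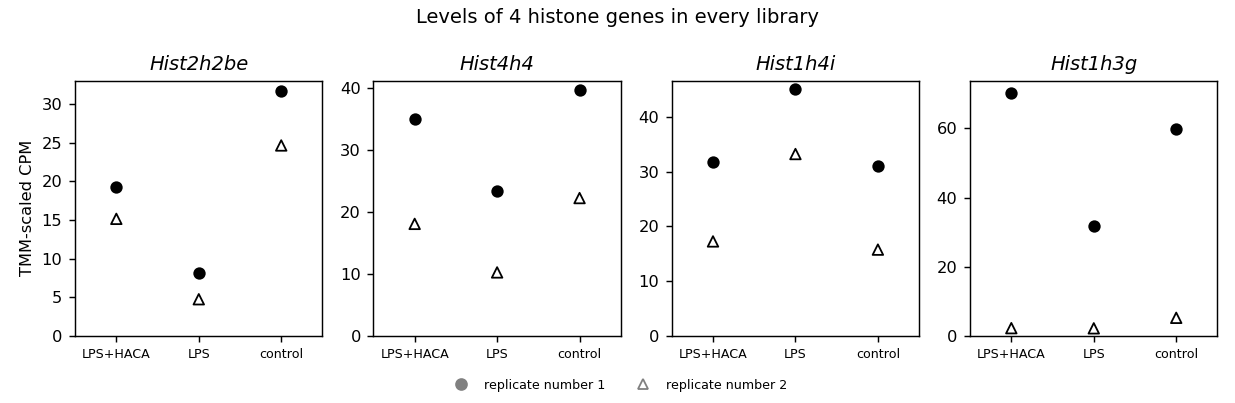
TMM-scaled CPM (y axis, from 0) of Hist2h2be, Hist4h4, Hist1h4i and Hist1h3g in every library, by group (x axis), with replicate 1 as filled circles and replicate 2 as open triangles. Hist2h2be is lower in both LPS libraries than in the other 4; in Hist1h3g the replicates of each group lie farther apart than the groups.

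Within a replicate number, the median ratio of LPS to control over the members lay above 1 in number 1 and below 1 in number 2 with TMM factors, and below 1 in both with library totals. With TMM factors the LPS library was above the control library in 8145 and below it in 8967 of all tested genes in replicate 1. In replicate 2 it was above in 8143 and below in 8955. In replicate 1, the LPS library was above the control library in 38 of 59 members and below it in 21, with a median log2 ratio of 0.17. In replicate 2 it was above in 13 and below in 46, with a median of -0.63, and 20 of 59 members were at least 2-fold lower, against 26.3% of all tested genes. With 1 library a group, these values have no test. Scaling by library totals in place of TMM factors put the all-gene median of the log2 fold change at -0.69 instead of -0.05, so ratios are best read relative to that median. Relative to the median of all tested genes, the members stood at 0.24 in replicate 1 and -0.55 in replicate 2 with TMM factors, and at 0.23 and -0.53 with library totals. Under library totals the member median of replicate 1 itself turned to -0.34. The LPS library was then below the control library in 49 of 59 members in replicate 1 and 55 of 59 in replicate 2. So were 11983 (replicate 1) and 12775 (replicate 2) of all 17113 tested genes.

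The shift in replicate 2 was not even over the classes. Its median log2 ratio of LPS to control was -1.14 in H1, -0.97 in H2A, -0.31 in H2B and -1.02 in H3, and 0.14 in H4, which became -0.64 with library totals and 0.19 relative to all tested genes under them. Over the 34 members without a near-identical copy the medians of replicate 2 were -1.14 in H1, -0.97 in H2A, -0.48 in H2B, -0.98 in H3 and 0.14 in H4. All 5 H1 genes and all 10 H3 genes were below control in replicate 2, and so were 5 of 13 H4 genes. In replicate 1 the class medians lay between -0.03 (H2A) and 0.27 (H4), and between -0.54 (H2A) and -0.24 (H4) with library totals.

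**Figure D4:**
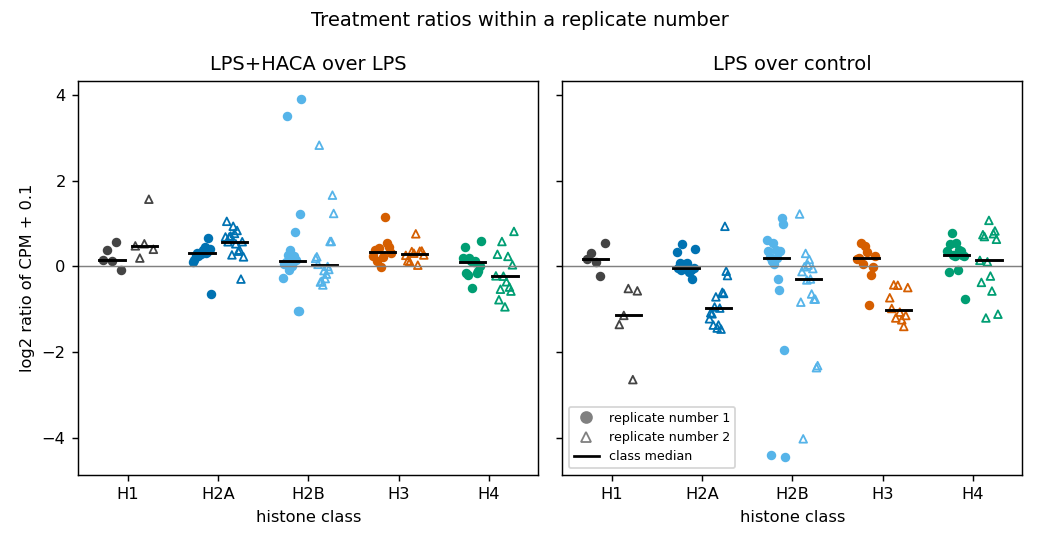
Log2 ratio of CPM + 0.1 (y axis) for LPS+HACA over LPS (left) and LPS over control (right) within replicate number 1 (filled circles) and number 2 (open triangles), by histone class (x axis), 1 point per tested gene, with the class median as a bar. For LPS over control the medians of H1, H2A and H3 in replicate 2 lie near -1, while that of H4 is 0.14.

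The makeup of the histone RNA shifted with these ratios. H4 genes held 54.9% of all member counts in LPS replicate 2, against 37.3% in control replicate 2, and 30.4% in LPS replicate 1, against 27.8% in control replicate 1. H3 genes held 7.03% in LPS replicate 2, against 11.6% in control replicate 2. Among members without a near-identical copy, H4 held 51.3% in LPS replicate 2, against 35.4% in control replicate 2. These shares of member counts do not depend on how libraries are scaled.

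**Figure D5:**
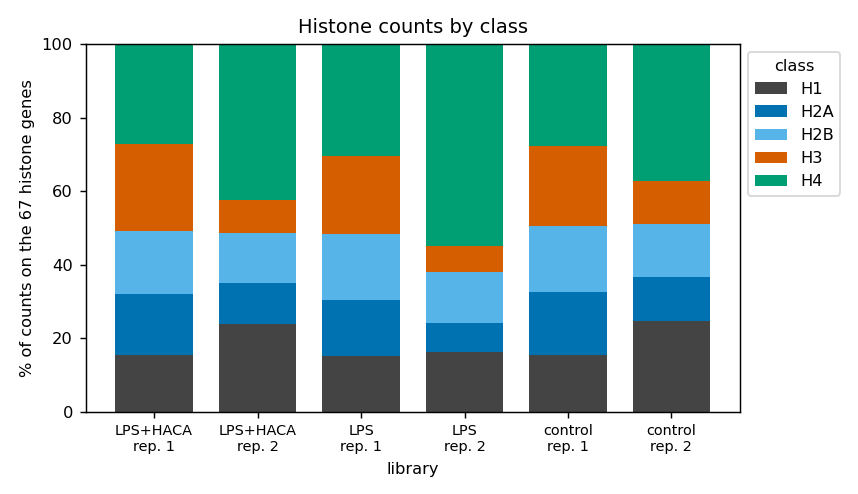
Share of the counts on the 67 histone genes (y axis, percent) that fell on each class, as stacked bars for the 6 libraries (x axis). The H4 share is 27.2% to 30.4% in the libraries of replicate 1 and 37.3% to 54.9% in those of replicate 2, highest in LPS replicate 2.

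In single H4 genes of replicate 2, Hist1h4i was at 33.2 CPM in the LPS library and 15.7 CPM in the control library, and Hist2h4 at 67.6 and 43.6 CPM in that order, which turned to a log2 ratio of -0.15 with library totals. In the opposite direction, Hist1h4f was at 11.3 CPM in the LPS library and 26.1 CPM in the control library. Hist4h4, the H4 gene of chromosome 6, was lower in the LPS library of both numbers, at 23.4 and 10.2 CPM in LPS libraries and 39.7 and 22.2 CPM in control libraries (log2 fold change -0.88, SE 0.49, adjusted p = 0.21, edgeR). It was called lower by edgeR with a replicate term (adjusted p = 0.0057) and with no filter on low counts (adjusted p = 0.028). These genes were chosen after their values were seen.

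Many H2A and H2B genes stand head to head and share the stretch between their start sites. Such pairs with at most 500 bases between them numbered 12, with 175 to 305 bases between the partners, and both partners were tested in 10. In 7 of these 10 the H2B partner had the higher log2 ratio of LPS to control in replicate 2 with TMM factors. Of the other 3 pairs, 2 hold Hist1h2bq and Hist1h2br, near-identical copies of each other whose values rest on 2 counts in the LPS library and 6 in the control library of replicate 2. In these 2 pairs the order turned with library totals: -1.29 for Hist1h2bq against -1.38 for Hist1h2ao, and -1.29 for Hist1h2br against -1.41 for Hist1h2ap. For Hist1h2ae and Hist1h2bg, the H2A gene was at 6.55 CPM in the LPS library and 17.1 CPM in the control library of replicate 2, and the H2B gene at 71.1 CPM in the LPS library and 57.6 CPM in the control library (log2 ratio 0.30, and -0.48 with library totals). For Hist2h2ac and Hist2h2be the order was the reverse: the H2A gene was at 26 CPM in the LPS library and 28.1 CPM in the control library of replicate 2, and the H2B gene at 4.72 CPM in the LPS library and 24.7 CPM in the control library. The stretches between these 2 pairs are shown because their partners differed while sharing them. They are written on the plus strand from the RefSeq promoter tables (GRCm38.p6), with ATTTGCAT, TATAAA and CCAAT, or their reverse complements, in capitals.
Hist1h2ae to Hist1h2bg, chr13:23571221-23571395: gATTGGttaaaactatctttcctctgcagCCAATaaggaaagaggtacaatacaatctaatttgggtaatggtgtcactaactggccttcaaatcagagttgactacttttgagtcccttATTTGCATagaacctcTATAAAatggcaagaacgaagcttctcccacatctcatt
Hist2h2ac to Hist2h2be, chr3:96220881-96221118: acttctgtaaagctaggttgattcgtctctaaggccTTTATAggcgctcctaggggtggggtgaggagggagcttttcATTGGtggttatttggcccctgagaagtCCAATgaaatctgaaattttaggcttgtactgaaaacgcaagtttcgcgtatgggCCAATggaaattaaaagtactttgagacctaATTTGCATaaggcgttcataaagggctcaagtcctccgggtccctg

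Each stretch holds 1 ATTTGCAT, the octamer bound by OCT factors, and 1 TATAAA, with 2 CCAAT matches in the first and 3 in the second. RefSeq promoters (250 bases before to 50 after the start) were found for 62 of the 67 members. Searched on both strands, ATTTGCAT was in 7 of 18 H2A promoters and 6 of 16 H2B promoters, against 1.74% of all 32851 promoters, and in none of H1, H3 or H4. CCAAT was in all promoters of H1, H2A, H2B and H3 found, in 3 of 12 of H4, and in 37.4% of all promoters. TATAAA was in 56.5% of member promoters and in 13.6% of all. AAACACA, a motif known from H1 promoters, was in 5 of 6 H1 promoters and in 7.18% of all. A match is a description of the sequence and not a site of binding, and no 2 matches overlap in the stretches shown.

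The second comparison asks what HACA did on top of LPS. Of the 59 members, 2 passed the test as higher in LPS+HACA than in LPS libraries, where 5.74% of all tested genes did, and 0 as lower, where 7.67% did. An unadjusted p under 0.05 was found for 3 members, all higher in LPS+HACA: the 2 that passed and Hist3h2ba. DESeq2 and limma-voom also called 0 as lower, beside 1799 (DESeq2) and 1249 (limma-voom) of all tested genes. The 2 that passed were again Hist2h2be and Hist1h2be, and the comparison shares the LPS libraries with the first. Hist2h2be was at 19.3 and 15.2 CPM in LPS+HACA libraries, against 8.18 and 4.72 CPM in LPS libraries (log2 fold change 1.42, SE 0.33, adjusted p = 0.031, edgeR). Hist1h2be, again only through its non-coding transcript, had 17 and 9 counts in LPS+HACA libraries, against 0 in both LPS libraries. It was at least 5.69-fold higher in LPS+HACA libraries (adjusted p = 0.026, edgeR). Both calls ended when any library other than LPS replicate 1 was left out: adjusted p (edgeR) then lay between 0.064 and 0.15 for Hist2h2be and between 0.051 and 0.11 for Hist1h2be. The highest of each came on dropping LPS+HACA replicate 1 and the lowest on dropping LPS replicate 2. With LPS replicate 1 dropped, adjusted p was 0.0082 for Hist2h2be and 0.033 for Hist1h2be (edgeR).

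The remaining members did not pass in the edgeR fit used above. DESeq2 called 3 members as higher, beside 1221 of all tested genes, the third member being Hist3h2ba (adjusted p = 0.044). With a replicate term, edgeR also called Hist3h2ba (adjusted p = 0.0255) and Hist4h4 (0.0367) higher and Hist1h4i (0.0322) lower. With no filter on low counts, it also called Hist1h3g (0.00622) and Hist3h2ba (0.00187) higher. Calls over all tested genes were 1955 higher and 2356 lower with the term, and 1845 and 1755 with no filter. The libraries of LPS+HACA and LPS did not overlap in 4 of 59, against 57.7% of all tested genes. Within a replicate number the LPS+HACA library was above the LPS library in 45 of 59 members in replicate 1 and in 42 of 59 in replicate 2. So it was in 8879 and 8981 of all 17113 tested genes. With library totals these counts were 56 and 57 of 59 members, beside 12985 and 13558 of all tested genes. With TMM factors the median log2 ratios of the members were 0.24 and 0.27. Relative to all tested genes these medians were 0.20 and 0.20 with TMM factors, and 0.22 and 0.23 with library totals, for which the all-gene median of the log2 fold change was 0.70 instead of 0.06. H2A genes had the highest class median in replicate 2 (0.58) and H4 genes the lowest (-0.23, which became 0.52 with library totals). Hist1h3g, an H3 gene with a near-identical copy that was singled out after its values were seen, was at 70.3 and 2.16 CPM in LPS+HACA libraries and 31.8 and 2.12 CPM in LPS libraries.

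The third comparison sets LPS+HACA against control. No member passed in either direction with edgeR, where 0.894% of all tested genes were higher and 0.257% lower, and DESeq2 and limma-voom also called 0. Over all genes, DESeq2 called 466 higher and 200 lower of 13131, and limma-voom 82 and 37 of 17113. An unadjusted p under 0.05 was found for 0 members. Hist2h2be was at 19.3 and 15.2 CPM in LPS+HACA libraries, against 31.7 and 24.7 CPM in control libraries (log2 fold change -0.71, SE 0.32, adjusted p = 0.45, edgeR). The 2 groups did not overlap in 2 of 59 members, against 46.5% of all tested genes. In replicate 1, 52 of 59 members were higher in the LPS+HACA library, with a median log2 ratio of 0.34, and in replicate 2, 49 of 59 were lower, with a median of -0.31. Of all 17113 tested genes, 8539 were higher in replicate 1 and 8473 lower in replicate 2.

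Summed over all members, the level was 8979 CPM in replicate 1 and 1625 CPM in replicate 2 of LPS+HACA, 8007 and 1641 CPM of LPS, and 6864 and 1768 CPM of control. The replicate 1 libraries were thus ordered LPS+HACA, LPS, control from the highest with TMM factors, while by share of all counts LPS was the lowest. The replicate 2 libraries lay within 1625 to 1768 CPM with TMM factors, and at 0.185% (LPS+HACA), 0.111% (LPS) and 0.205% (control) by share of all counts. The ratio of replicate 1 to replicate 2 was 5.52 in LPS+HACA, 4.88 in LPS and 3.88 in control.

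Genes that make and trim histone mRNA were called in both directions, at shares near those of all tested genes (15.9% higher and 14.3% lower in LPS against control). Of 15 tested genes of histone mRNA processing, 2 were higher and 3 lower in LPS than in control libraries (edgeR), with a median log2 fold change of -0.14 beside -0.05 over all tested genes. Cpsf2, a subunit of the cleavage complex, was at 261 and 242 CPM in LPS libraries, against 111 and 112 CPM in control libraries (adjusted p = 0.0038, edgeR). Cpsf3, its endonuclease, was at 2.56 and 2.12 CPM in LPS libraries, against 7.59 and 6.68 CPM in control libraries (adjusted p = 0.0073, edgeR). In LPS+HACA libraries both lay nearer to control, with Cpsf2 at 153 and 139 CPM (adjusted p = 0.036 against LPS, edgeR) and Cpsf3 at 7.71 and 7.10 CPM (adjusted p = 0.016 against LPS, edgeR).

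The other called genes of this list changed in LPS against control. Cstf2, a cleavage stimulation factor, was at 4.24 and 6.17 CPM in LPS libraries, against 1.57 and 2.65 CPM in control libraries (adjusted p = 0.044, edgeR). Npat, the coactivator of histone transcription in S phase, was at 29.9 and 26.8 CPM in LPS libraries, against 43.9 and 49.6 CPM in control libraries (adjusted p = 0.039, edgeR). Mblac1, whose human counterpart is a nuclease of histone pre-mRNA, was at 1.38 and 4.53 CPM in LPS libraries, against 16.6 and 13.6 CPM in control libraries (adjusted p = 0.0096, edgeR). Slbp did not pass (log2 fold change -0.14, SE 0.31, adjusted p = 0.77, edgeR).

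Of 30 tested genes of S phase and DNA replication, 0 were higher and 3 lower in LPS than in control libraries, and the same 3 were higher in LPS+HACA than in LPS libraries (edgeR). Of all tested genes, 14.3% were lower in LPS than in control libraries and 5.74% higher in LPS+HACA than in LPS libraries. An unadjusted p under 0.05 was found for 0 higher and 7 lower genes in LPS against control. There DESeq2 called 0 higher and 6 lower, beside 2980 and 2498 of all tested genes. With limma-voom 0 were higher and 3 lower, beside 2645 and 2163 of all tested genes. The median log2 fold change of the list was -0.42 in LPS against control and 0.56 in LPS+HACA against LPS, beside -0.05 and 0.06 over all tested genes. Rfc2, a subunit of the clamp loader, was at 12.6 and 13.1 CPM in LPS+HACA libraries, 6.70 and 4.14 CPM in LPS libraries and 17.4 and 19.9 CPM in control libraries. Cdk2, the kinase of S-phase entry, was at 7.53 and 5.41 CPM in LPS+HACA libraries, 1.87 and 2.79 CPM in LPS libraries and 8.41 and 9.0 CPM in control libraries. Tk1, thymidine kinase, was at 34.3 and 28.5 CPM in LPS+HACA libraries, 12.1 and 15.7 CPM in LPS libraries and 23.9 and 27.3 CPM in control libraries. In all 3 genes the replicates of a group lay closer together than those of most histone genes. No gene of the G2 and mitosis list passed in any comparison with edgeR, where 0 had an unadjusted p under 0.05, or with DESeq2. With limma-voom 1 passed as higher in LPS than in control libraries. Mki67 had a log2 fold change of LPS against control of 1.95 (SE 0.87, adjusted p = 0.16, edgeR).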

How the data were processed

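Poly(A)-selected RNA of 6 libraries was sequenced with TruSeq libraries, per the labels' protocols. The deposited counts are whole-number read counts per transcript. The FPKM values were computed by the authors and are used here, summed per gene, only to compare levels between genes. STAR 2.5.4b and GRCm38 are named in the submitters' processing notes (which also list GRCh38). The sources used here do not name the counting program, its strand setting or its treatment of reads with several matches. Transcript rows were matched to GENCODE vM21 (141524 of 142647) and summed per gene. Genes were tested with edgeR 4.0.16 (filterByExpr, TMM, robust quasi-likelihood fit of group over 6 libraries, 3 residual degrees of freedom), and 17113 genes passed the filter. The test was checked on counts simulated with no effect of replicate number, so the check does not cover the replicate gap of the histone genes. Adjusted p-values cover all tested genes, at 0.05. SE was taken as |log2 fold change| over the root of the F statistic. Log2 ratios of single libraries use CPM + 0.1. Alternatives used DESeq2 1.42.0, limma 3.58.1, other scalings and filters, a replicate term and fewer libraries. Named were the 12 members with the highest mean CPM, every called member, and in each list up to 3 called genes a direction and comparison by size of change, with Slbp, Npat, Mki67 and Pcna. Members and lists were chosen with earlier results of these data known. Limits from counts of 3 cover counting error only.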

Additional observations from a re-analysis of the deposited data

How the results depend on the processing

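Hist2h2be and Hist1h2be kept their lower call in LPS against control under all alternatives run. Without each library in turn, 2 to 3 members were lower and 0 higher in that comparison. In LPS+HACA against LPS the count of higher members ranged from 0 to 2 without each library. With no filter on low counts, members higher in LPS against control numbered 1 and lower 5, beside 3089 higher and 3220 lower of all 29118 genes then tested. In LPS+HACA against LPS 4 members were higher, beside 1845 of these genes. The cause was not tested. Replicate numbers are not said to mark a shared animal or culture, and the deviations of same-numbered libraries correlated at r = 0.308 (LPS and control), 0.498 (LPS+HACA and LPS) and 0.509 (LPS+HACA and control) over 17113 genes. With the replicate block, 5 members were higher (Hist1h4c, Hist1h4d, Hist1h4i, Hist1h4m and Hist1h4n) and 6 lower (Hist1h1d, Hist1h2be, Hist1h3g, Hist2h2be, Hist3h2ba and Hist4h4) in LPS against control. In LPS+HACA against LPS the block gave 4 higher (Hist1h2be, Hist2h2be, Hist3h2ba and Hist4h4) and 1 lower (Hist1h4i). In LPS+HACA against control all alternatives gave 0 in both directions. The log2 ratio of summed member levels, 0.16, 0.14 and 0.30 in the 3 comparisons, turned to -1.40, -1.57 and -1.41 without replicate 1 of the group named first (LPS, LPS+HACA and LPS+HACA), and to 1.45, 1.69 and 1.58 without replicate 1 of the other group. With library totals it was -0.39, 0.72 and 0.32. The median SE of 1.75 over members in the fit without the block limits what that fit can show for a member.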

Other observations

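Replacement histones are used outside S phase, and chaperones handle histones before they are placed on DNA. In LPS against control libraries, 15.9% of all tested genes were called higher and 14.3% lower. Of 11 tested replacement and variant histone genes, 1 was higher and 1 lower in LPS than in control libraries, with a median log2 fold change of -0.25 beside -0.05 over all tested genes. H3f3b, which codes for the replacement histone H3.3 and gives polyadenylated mRNA, was at 40.9 and 37.9 CPM in LPS+HACA libraries, 125 and 159 CPM in LPS libraries and 21.3 and 25.1 CPM in control libraries. It rose 2.61 on the log2 scale in LPS against control (adjusted p = 0.00035, edgeR) and fell by 1.85 in LPS+HACA against LPS (adjusted p = 0.0055, edgeR). H2afj, an H2A variant, was at 9.26 and 14.3 CPM in LPS libraries, against 24.7 and 19.5 CPM in control libraries (adjusted p = 0.049, edgeR). In both genes the replicates of a group lay closer together than those of most replication-dependent genes.

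Of 20 tested histone chaperone genes, 1 was higher and 1 lower in LPS than in control libraries. Daxx, a chaperone of H3.3, was at 14.6 and 13.5 CPM in LPS+HACA libraries, 59.6 and 59.5 CPM in LPS libraries and 2.95 and 3.24 CPM in control libraries. Its adjusted p was 0.00011 for LPS against control, 0.0039 for LPS+HACA against LPS and 0.011 for LPS+HACA against control (edgeR). Tonsl, which binds new histone H4 at replication forks, was at 5.83 and 4.19 CPM in LPS+HACA libraries, 2.07 and 1.64 CPM in LPS libraries and 5.21 and 3.77 CPM in control libraries, with adjusted p = 0.040 for LPS against control and 0.047 for LPS+HACA against LPS (edgeR).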
